A study of Rattus norvegicus with 16 samples.

Results

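Expression of Cd14, Lbp, Tlr2, Tlr4, Ly96 and Myd88, the genes by which cells sense bacterial lipopolysaccharide (LPS) and related ligands, was examined in cells of injured and uninjured rat intervertebral discs (IVD). The 6 genes were chosen by name. Their levels in disc, myeloid and endothelial cells, and the injured-to-uninjured differences in disc cells, were already known when they were chosen. The comparison of classes, the injured-to-uninjured differences in disc cells and the difference of the 6 genes between the time points are therefore given as a description with no test. The p-values of these genes within myeloid and endothelial cells also rest on known levels, and nothing is read from them. Of the 6 genes, 5 have a value in all 16 libraries and Ly96 is listed in none, out of 14930 genes listed in any library and 13596 listed in every library.

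All 8 rats were male Sprague-Dawley animals, labelled as 8 weeks old, and each had the same spinal surgery. In each rat the 2 lumbar discs stabbed with a needle were pooled as 1 library (LDP, lumbar disc puncture), and the 2 unpunctured discs above them were pooled as another (CON, control). Rats 1 to 4 were taken 2 weeks and rats 5 to 8 were taken 8 weeks after surgery, so that each animal gave 1 CON and 1 LDP library and no rat was without surgery. Single-cell RNA was read with 10x Genomics 3′ libraries, and levels are given as mean CPM, the unique molecular identifiers (UMIs) of a gene scaled to a total of 1000000 per cell, averaged over the cells of a class in a library.

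LPS is lifted out of bacterial membranes by LBP, the secreted LPS-binding protein, and handed to CD14, a membrane or soluble carrier without a signalling domain of its own. CD14 passes it to the complex of TLR4 with MD-2, the product of Ly96. TLR2 senses bacterial lipoproteins, and MYD88 is the adaptor through which both receptors activate NF-κB. In the disc these receptors are also studied as sensors of matrix fragments and alarmins, and Cd14 is widely used as a marker of monocytes and macrophages, whereas Lbp is best known as an acute-phase gene of the liver.

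The libraries held 149272 cells, from 2221 to 15918 each, with 17759809 to 85025591 UMIs per library. The class names were those of the authors: 127077 disc cells (1313 to 14252 per library, median 4226 to 9889 UMIs per cell), 7057 endothelial cells in 12 libraries, 1731 myeloid cells (19 to 369 per library), 8028 lymphoid cells in 12 libraries and 5379 cells without a name. The names were set beside marker sums. The paper lists the disc markers used here, and Lyz2 and Cd68 of the myeloid ones, among its naming genes, so a match was in part fixed. The summed level of Acan, Col2a1, Sox9, Comp and Fmod was 9031 to 28739 CPM in disc cells. It was 120 to 4190 CPM in myeloid cells and 6432 to 21497 CPM in cells without a name of LDP at 2 weeks, which overlaps disc cells. The summed level of 11 myeloid markers, with Lyz2 and Csf1r among them, was 5613 to 17010 CPM in myeloid cells and 5.23 to 30.2 CPM in disc cells. Of 146483 barcodes, 2762 occurred in more than 1 library. Myeloid cells of CON rat 1, LDP rat 3 and LDP rat 4 stood apart because they held cells rich in S100a8 and S100a9, which are described at the end. Granulocyte markers, 6 in all but not all listed in each group, summed to 39914 to 54431 CPM in these libraries. In the other myeloid libraries they summed to 0 to 767 CPM. LDP rat 8 had 19 myeloid cells and is left out of comparisons of that class.

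Cd14 was found in disc cells of every library at a low level and in myeloid cells at a high one. In disc cells its mean CPM was 39.1, 62.2, 62.6 and 17.8 in CON rats 1 to 4 and 40.8, 44.5, 59.0 and 34.4 in LDP rats 1 to 4. At 8 weeks it was 58.5, 63.1, 46.4 and 58.3 in CON rats 5 to 8 and 92.7, 62.3, 39.8 and 52.5 in LDP rats 5 to 8. The groups overlapped, with CON rat 4 lowest and LDP rat 5 highest of the 16 libraries. In myeloid cells Cd14 was at 294, 382, 301 and 196 CPM in CON rats 1 to 4 and at 133, 277, 435 and 325 CPM in CON rats 5 to 8. It was higher in myeloid than in disc cells in 15 of 15 libraries, with a median ratio of 9.22. The paper lists Cd14 among the marker genes used to name the myeloid class. This order was therefore in part set by the naming, and nothing is read from it.

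The Cd14 of disc cells was compared with the macrophage gene Lyz2 and with cells of other classes. For each Lyz2 UMI there were 7.59 to 102 Cd14 UMIs in disc cells, against 0.0467 to 0.26 in myeloid cells of the same library, a ratio that was 32.0 to 1396 times higher in disc cells. Between 90.4 and 97.1% of the disc cells of a library had no UMI of Lyz2, Laptm5, Tyrobp, Fcer1g, Ptprc or Cd68, and the mean CPM of Cd14 in those cells was 0.988 to 1.01 times that of all disc cells. When each cell was thinned to 1000 UMIs, Cd14 had a UMI in 1.65 to 9.28% of disc cells (9.95 to 44.9% with all UMIs). In lymphoid cells, a shallower class (median 1319 to 5296 UMIs per cell) taken here to lack it, the share was 0 to 3.85% at 1000 UMIs. It was below that of disc cells in each of 11 libraries with both classes, and the mean CPM was in 10 of 11, LDP rat 2 being the exception. Endothelial cells were below disc cells in 11 of 12 libraries by mean CPM, LDP rat 7 being the exception, and in 12 of 12 by the share at 1000 UMIs.

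Lbp, the secreted carrier of LPS, was read in disc cells of every library. At 2 weeks its mean CPM was 93.2, 226.9, 116 and 101 in CON rats 1 to 4 and 112, 136.5, 99.5 and 130.3 in LDP rats 1 to 4. At 8 weeks it was 253, 234, 375 and 256 in CON rats 5 to 8 and 265, 186, 425 and 249.5 in LDP rats 5 to 8. CON rat 2 stood above the other 7 libraries at 2 weeks, and rat 7 had the highest level at 8 weeks in both of its libraries. Thinned to 1000 UMIs, 7.70 to 28.6% of disc cells had an Lbp UMI, compared with 0 to 2.93% of lymphoid and 0 to 7.51% of endothelial cells. Disc cells were above endothelial cells in 12 of 12 libraries, above lymphoid cells in 11 of 11 and above myeloid cells in 14 of 15, where LDP rat 3 was the exception.

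Tlr4, the receptor of the LPS complex, was at 13.5 to 22.5 CPM in disc cells of 15 libraries and at 5.77 CPM in LDP rat 4. At 1000 UMIs it had a UMI in 0.52 to 2.33% of disc cells and in 0 to 1.10% of lymphoid cells, and disc cells were higher in 11 of 11 libraries. Disc cells were also above endothelial cells in 12 of 12 libraries, with a median ratio of 2.40. Myeloid cells exceeded disc cells in 5 of 15 libraries, so that Tlr4, unlike Cd14, was not highest in the myeloid class in most of them. The 1712 myeloid cells of these libraries held 82 Tlr4 UMIs in all, so the order within a single library is uncertain. Tlr2, the lipoprotein receptor, was at 1.38 to 4.16 CPM in disc cells and at 6.42 to 307 CPM in myeloid cells of 15 libraries. Its share in disc cells at 1000 UMIs, 0.111 to 0.458%, lay within the 0 to 0.596% of lymphoid cells, so it was not told apart from background.

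Myd88, the shared adaptor, was ordered differently among the classes. It was at 80.3 to 137 CPM in endothelial cells, 42.6 to 108 CPM in myeloid cells of 15 libraries and 9.41 to 25.5 CPM in disc cells. Endothelial cells were above disc cells in 12 of 12 libraries, and myeloid cells were above disc cells in 15 of 15. Endothelial cells were above myeloid cells in 11 of 11 libraries by mean CPM and in 7 of 11 by the share at 1000 UMIs. No class is known to lack Myd88, and its background was not measured.

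**Figure D1:**
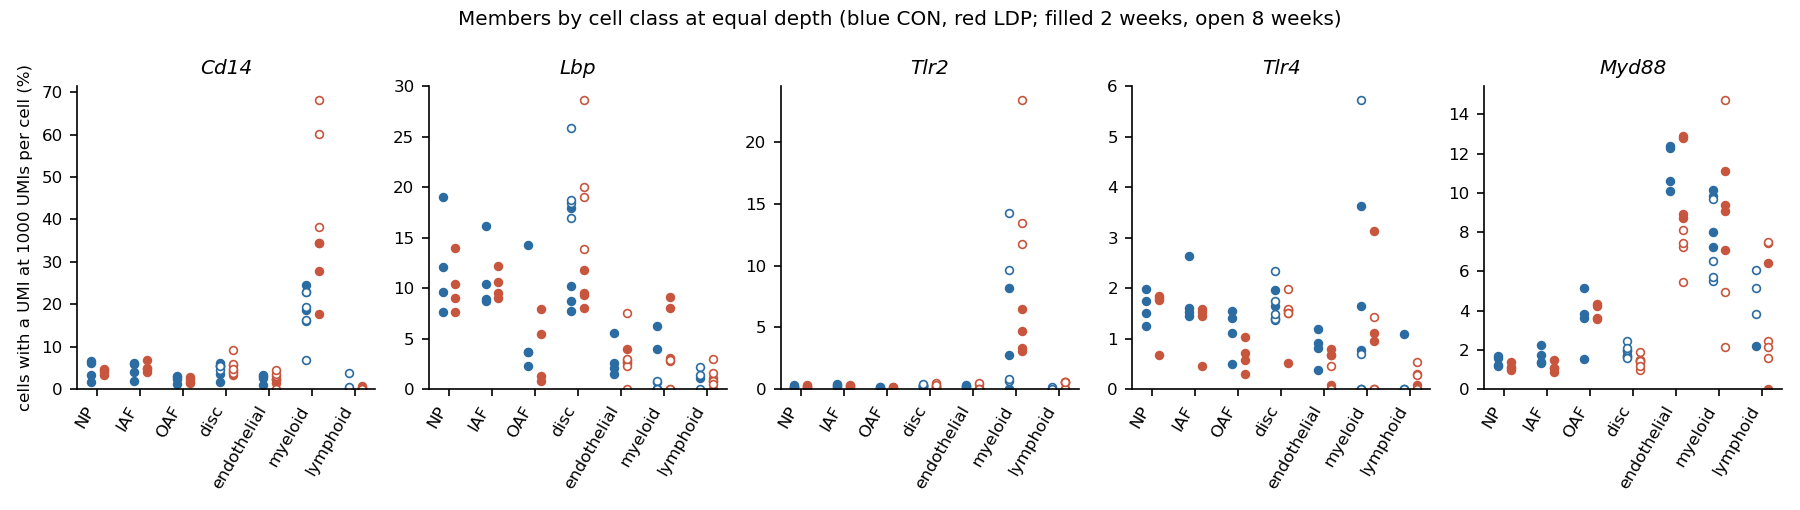
Share of cells with a UMI of each gene after thinning each cell to 1000 UMIs, in percent, by cell class; 1 point per library with at least 20 such cells, blue for CON, red for LDP, filled for 2 weeks and open for 8 weeks (NP, IAF and OAF at 2 weeks). Cd14 and Tlr2 have their highest points in myeloid cells, Lbp in disc cells and Myd88 in endothelial and myeloid cells; disc cells reach 28.6% for Lbp and 0.458% for Tlr2.

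Within the disc class at 2 weeks, the outer annulus fibrosus (OAF) differed from the nucleus pulposus (NP) and inner annulus fibrosus (IAF). The study clustered CON and LDP cells apart, and which LDP subcluster is NP and which is IAF was read from the study's text, so NP and IAF of LDP could be exchanged while OAF could not. The Cd14 range was 16.9 to 69.2 CPM over NP, 19.97 to 66.9 CPM over IAF and 13.8 to 35.2 CPM over OAF libraries. NP exceeded OAF in 8 of 8 libraries and IAF exceeded OAF in 8 of 8, with median ratios of 1.91 and 2.02. Lbp ranged from 92.1 to 239 CPM over NP, from 95.7 to 202 CPM over IAF and from 9.54 to 193 CPM over OAF libraries, again with NP and IAF above OAF in 8 of 8 libraries and median ratios of 2.46 and 2.26. In CON rat 2 the OAF level was 193 CPM and the NP level 239 CPM, whereas OAF of the other 3 CON libraries was at 23.6 to 46.9 CPM. In LDP rat 4 OAF and NP were level, at 116 and 118 CPM (ratio of NP to OAF 1.01), so the order of NP above OAF was not clear in that library.

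Tlr4 and Myd88 showed opposite orders in the annulus. Tlr4 ranged from 7.52 to 19.4 CPM over NP, from 5.04 to 21.6 CPM over IAF and from 2.83 to 13.9 CPM over OAF libraries, lower in OAF than in NP and in IAF in 8 of 8 libraries each. By the share at 1000 UMIs OAF was below NP in 7 of 8 libraries, CON rat 3 being the exception (1.40% in OAF and 1.25% in NP). Myd88 ranged from 9.67 to 18.8 CPM over NP, from 9.49 to 25.8 CPM over IAF and from 32.6 to 51.7 CPM over OAF libraries, higher in OAF in 8 of 8 libraries, with OAF below endothelial cells throughout. At equal depth 7 of 8 libraries had a higher share of Myd88 cells in OAF than in NP, CON rat 2 being the exception (1.54% in OAF and 1.56% in NP). NP and IAF did not take 1 order in all libraries: IAF was the higher of them for Cd14 in 6 of 8, for Lbp in 3 of 8 and for Myd88 in 3 of 8 libraries. Tlr2 was at 0 to 3.34 CPM in the 3 subclusters. By mean CPM NP and IAF were above OAF in 8 of 8 libraries each, with median ratios of 1.96 and 1.79. By the share at 1000 UMIs NP was above OAF in 7 of 8 libraries and IAF in 6 of 8. The OAF cells of all libraries held 72 Tlr2 UMIs.

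Members were seldom read in the same disc cell. Among 126195 disc cells thinned to 1000 UMIs, 924 had a UMI of both Cd14 and Lbp, where the product of their shares in each library summed to 856. For Cd14 and Tlr4 the count was 92 against a product of 89.5, for Lbp and Tlr4 it was 280.0 against 274, and for Tlr4 and Myd88 it was 22 against 30.9. Cd14, Lbp and Tlr4 were read together in 10 cells. At this depth most cells that hold a transcript show no UMI of it, so these counts describe the reads and not how many cells use the genes together.

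Disc puncture was compared with the control discs of the same rat. In disc cells Cd14, Lbp, Tlr2 and Tlr4 were higher in LDP in some rats and lower in others at each time, whereas Myd88 was lower in LDP in 7 of 8 rats. Limma called 0.181% of all genes in this contrast at 2 weeks and 0.259% at 8 weeks (adjusted p of 0.05), and no member was among them. Nothing is read from that count, because the genes were chosen with this contrast known. For Cd14 the mean within-rat log2 ratio of LDP to CON was 0.10 ± 0.59 at 2 weeks and 0.07 ± 0.40 at 8 weeks (SD, n = 4 rats each). Cd14 was higher in LDP in 3 of 8 rats, among them rat 4 (17.8 CPM in CON and 34.4 CPM in LDP) and rat 5 (58.5 and 92.7 CPM). For Lbp the log2 ratio was -0.08 ± 0.50 and -0.03 ± 0.21, with LDP higher in 4 of 8 rats. Tlr4 gave -0.29 ± 0.61 and -0.07 ± 0.38. In rat 4 it was at 14.4 CPM in CON and 5.77 CPM in LDP, and without rat 4 the mean at 2 weeks was 0.01. By subcluster at 2 weeks, with no test, the Tlr4 ratio was -0.90 ± 0.54 in OAF cells and -0.42 ± 0.57 in IAF cells, lower in LDP in 4 of 4 rats in each, and -0.12 ± 0.58 in NP cells, lower in 1 of 4. The NP and IAF ratios rest on LDP labels that could be exchanged. IAF of CON was at 13.9, 21.6, 14.7 and 13.5 CPM in rats 1 to 4, and the LDP cells called NP were at 18.1, 19.4, 18.5 and 7.52 CPM. With the labels exchanged, IAF would not be lower in LDP in every rat. In OAF cells Tlr4 was at 10.9, 13.9, 11.5 and 11.3 CPM in CON of rats 1 to 4 and at 7.77, 8.35, 6.27 and 2.83 CPM in LDP, so that the groups did not overlap. At 1000 UMIs the shares overlapped, with CON rat 4 at 0.496% and LDP rat 2 at 1.04%. The mural cell markers Rgs5, Acta2, Myh11 and Notch3 summed to 5.94 to 24.4 CPM in OAF cells of CON and 183 to 516 CPM in those of LDP. In IAF cells the endothelial markers summed to 22.1 to 290 CPM in CON and 13.0 to 29.9 CPM in LDP. Their part in the subcluster ratios of Tlr4 and Myd88 was not tested. Tlr2 gave -0.02 ± 0.26 and -0.29 ± 0.25, from levels not told apart from background.

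Myd88 in disc cells was at 18.0, 21.8, 19.01 and 18.95 CPM in CON rats 1 to 4 and at 14.3, 15.1, 15.2 and 14.2 CPM in LDP rats 1 to 4. At 8 weeks it was at 19.9, 25.5, 17.4 and 18.6 CPM in CON rats 5 to 8 and at 9.41, 18.1, 11.5 and 19.1 CPM in LDP rats 5 to 8. The groups did not overlap at 2 weeks and overlapped at 8 weeks, and LDP was lower in 7 of 8 rats, rat 8 being the exception. The log2 ratio was -0.38 ± 0.09 at 2 weeks and -0.50 ± 0.43 at 8 weeks. Under mean CPM the median log2 ratio of all genes was itself -0.08 at 2 weeks and -0.16 at 8 weeks, and under edgeR, whose TMM scaling centres the genes, Myd88 was at -0.33 and -0.36. At 2 weeks the log2 ratio of Myd88 was -0.36 ± 0.32 for NP, -0.59 ± 0.54 for IAF and -0.10 ± 0.20 for OAF cells. The NP and IAF ratios rest on LDP labels that could be exchanged. The NP markers summed to a median of 1073 CPM (1004 to 1751) in the LDP cells called NP and 985 CPM (973 to 1604) in those called IAF. The summed level of the OAF markers in disc cells was 8681 to 15017 CPM in CON and 6663 to 13307 CPM in LDP at 2 weeks, and 2388 to 4268 CPM and 1012 to 2751 CPM at 8 weeks. The endothelial markers in disc cells summed to 30.3 to 174 CPM in CON and 14.5 to 26.9 CPM in LDP at 2 weeks. At 8 weeks they summed to 8.87 to 18.7 CPM and 6.88 to 8.75 CPM, beside 2314 to 4923 CPM in endothelial cells over 12 libraries. The part of either marker set in the Myd88 values was not tested. With DESeq2 the ratios of Tlr2 at 2 weeks and of Lbp and Tlr4 at 8 weeks had the opposite sign (0.03, 0.14 and 0.17), all inside the spread between rats.

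Of the pathway around the members, 71 listed genes were fitted in disc cells, and none passed at either time (limma, Benjamini-Hochberg). Of all genes only 0.181% passed at 2 weeks and 0.259% at 8 weeks, so nothing is read from this count. The adaptors, kinases and transcription factors had a median log2 ratio of -0.17 at 2 weeks and -0.31 at 8 weeks over 23 genes, the inhibitors -0.24 and -0.35 over 11 genes, and the induced targets -0.19 and -0.39 over 14 genes. The other toll-like receptors had -0.26 and -0.33 over 2 genes, the acute-phase genes -0.12 and -0.01 over 6, the matrix and alarmin ligands -0.22 and -0.33 over 12, and the other LPS-binding and peptidoglycan-sensing genes 0.17 and 0.55 over 3. All genes together had -0.08 and -0.16. Among the inhibitors at 8 weeks, Socs3, a brake on cytokine signalling, was at 5.40 to 6.81 CPM in CON and 1.06 to 3.41 CPM in LDP, with a log2 ratio of -1.03 ± 0.23 (SE) and an adjusted p of 0.0864. Tnfaip3, the A20 enzyme that ends NF-κB signalling, had -0.88 ± 0.24 (SE) and an adjusted p of 0.108.

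Among the target and acute-phase genes the values pointed both ways. Lcn2, a siderophore-binding acute-phase protein, had log2 ratios of 0.83 and 1.08 (adjusted p of 0.36 and 0.124), and Steap4, an iron and copper reductase, had -0.37 and -0.84 (0.529 and 0.111). Csf1, the macrophage growth factor, had -0.50 and -0.72 (0.387 and 0.117), Lif -0.67 at 2 weeks (0.387) and the adhesion gene Icam1 -0.42 at 8 weeks (0.102). Pglyrp1, a secreted peptidoglycan-binding protein, was at 24.9 to 63.0 CPM in CON and 43.4 to 118 CPM in LDP at 2 weeks, with log2 ratios of 0.94 and 0.79 (0.129 and 0.0993). Vcan, a matrix proteoglycan and TLR2 ligand, had -0.75 and -0.68 (0.15 and 0.0993), and Lum had -0.67 and -1.54 (0.486 and 0.0916). Lcn2 and Pglyrp1 are also neutrophil granule genes. The summed granulocyte markers in disc cells had a median of 1.17 CPM in CON and 33.8 CPM in LDP at 2 weeks (0.796 to 94.9 and 1.52 to 97.9 CPM) and of 2.23 and 26.0 CPM at 8 weeks (1.19 to 85.7 and 3.00 to 58.0 CPM), with 4 of the 6 markers listed in CON and 6 in LDP at 2 weeks and 5 at 8 weeks. Their part in the Lcn2 and Pglyrp1 values was not tested. The remaining named genes, Tlr3, Tlr6, Traf6, Hsp90b1, Rel, Irak3, Zc3h12a, Nod1 and Casp4, had adjusted p-values from 0.105 to 0.65.

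**Figure D2:**
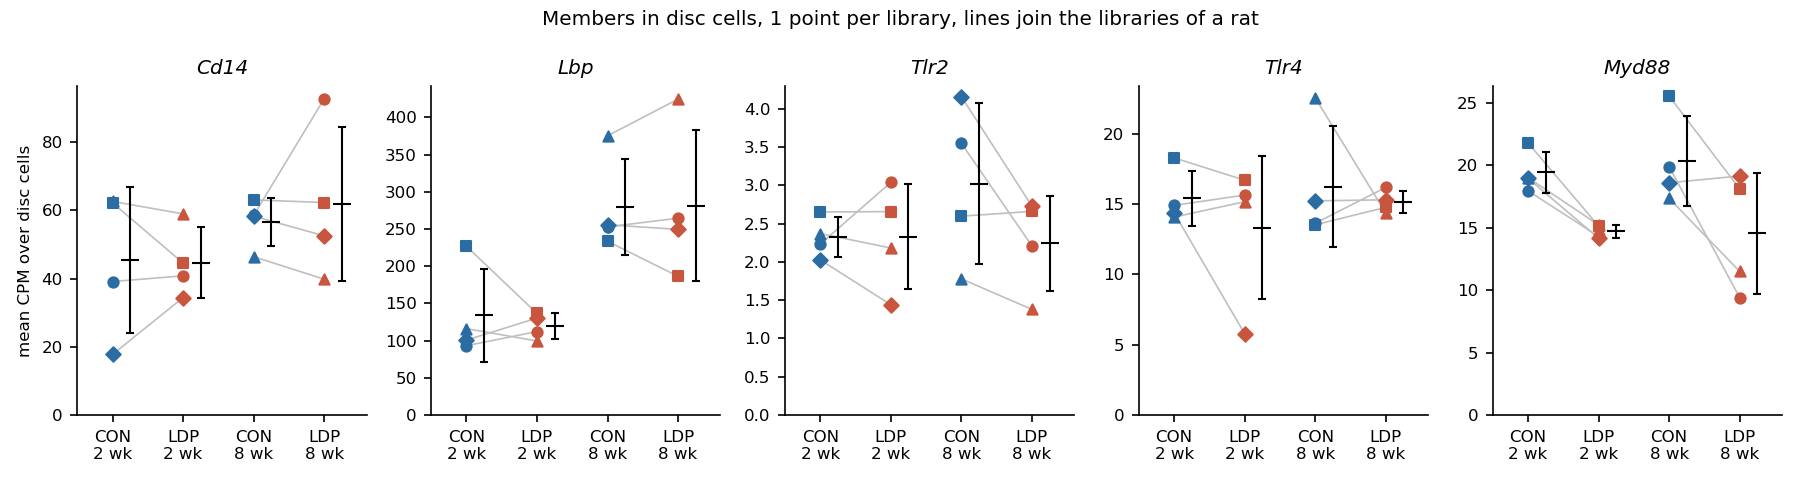
Mean CPM over disc cells of the 5 listed genes, 1 panel per gene with its own axis from 0; each point is a library (blue CON, red LDP), grey lines join the libraries of a rat, and black bars give the group mean and SD (n = 4). The lines for Myd88 fall in 7 of 8 rats, those of the other genes go both ways, and Lbp is at 234 to 375 CPM in CON at 8 weeks against 93.2 to 226.9 CPM in CON at 2 weeks.

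The control discs of the 2 time points were compared next. For the members this is a description with no test, because it rests on disc cell levels that were known when the genes were chosen. Lbp was higher at 8 than at 2 weeks: its mean CPM was 134 ± 62.5 at 2 weeks and 279 ± 64.7 at 8 weeks (SD, n = 4), and the lowest library at 8 weeks (234 CPM) was above the highest at 2 weeks (226.9 CPM). The log2 change was 1.12 ± 0.26 (SE). At 1000 UMIs the share of disc cells with an Lbp UMI was 11.2 ± 4.66% at 2 weeks and 20.002 ± 4.01% at 8 weeks. The shares of the 2 times overlapped, since CON rat 2 at 2 weeks (18.0%) lay above CON rat 6 at 8 weeks (16.9%). Limma called 19.3% of all genes in this contrast (7.47% higher and 11.8% lower at 8 weeks, adjusted p of 0.05), and nothing is read from it about the members.

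The time points differ in the animals and in their age at harvest, which cannot be told apart from the time after surgery. Other features of the disc class moved with Lbp. The summed markers of OAF, the disc subcluster with the lowest Lbp at 2 weeks, were at 8681 to 15017 CPM in CON at 2 weeks and 2388 to 4268 CPM in CON at 8 weeks. The disc markers were at 19557 to 28739 CPM and 9031 to 13591 CPM, and the median number of UMIs per disc cell was 4226 to 7640 and 5162 to 7667. Their part in the Lbp values was not tested. In CON at 2 weeks Lbp in NP cells was at 96.2, 239, 135 and 113 CPM in rats 1 to 4. Disc cells at 8 weeks were not divided into subclusters here, so the times could not be compared within NP, IAF or OAF.

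Of the other members in control discs, Cd14 had a log2 change of 0.46 ± 0.33 (SE), Tlr2 0.24 ± 0.18, Tlr4 0.05 ± 0.16 and Myd88 0.05 ± 0.13. The share of Tlr2 cells at 1000 UMIs was 0.208 ± 0.0258% at 2 weeks and 0.314 ± 0.05% at 8 weeks. These shares lie within those of lymphoid cells and are not read as a change.

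Within the pathway lists, 11 of 68 fitted genes passed between the control discs of the 2 times, 4 of them higher and 7 lower at 8 weeks. That is 16.2% of the fitted list genes (5.88% higher and 10.3% lower), beside 19.3% of all genes (7.47% higher and 11.8% lower). Of the 11 genes, 6 are among the matrix and alarmin ligands, and the other lists hold 5. Lcn2, 1 of 5 acute-phase genes fitted, rose from 6.87 ± 3.68 to 21.7 ± 5.88 CPM (log2 change 1.62, adjusted p of 0.00737), and the other 4 did not pass. Nos2, the inducible nitric oxide synthase, was at 0.789 ± 0.313 CPM at 2 weeks and 3.62 ± 1.55 CPM at 8 weeks (log2 change on CPM + 1 of 1.32, adjusted p of 0.0046). It was at 0.519 to 1.16 CPM in the 2-week libraries and met the limit of 1 CPM in 4 libraries through those of 8 weeks. Nothing is read from its call. Vcam1, an adhesion gene, was lower by 0.79 (0.0195), at 1.51 to 3.45 CPM at 2 weeks and 0.635 to 1.36 CPM at 8 weeks. It met the limit through the 2-week libraries, and nothing is read from its call either. The other 12 of 14 induced targets did not pass. Tlr3, the receptor of double-stranded RNA, fell from 3.16 ± 0.291 to 1.62 ± 0.391 CPM (log2 change -0.68, adjusted p of 0.00891), whereas Tlr6 did not pass. Hsp90b1, the chaperone that folds toll-like receptors, fell by 0.48 (0.0325), and the other 22 adaptors, kinases and transcription factors did not pass. Of 11 inhibitors none passed (Tnfaip3 -0.50 and Dusp1 -0.74, adjusted p of 0.136 and 0.178), nor did any of 3 other LPS-binding and peptidoglycan-sensing genes (Pglyrp1 -0.51 and Nod1 -0.28, adjusted p of 0.30 and 0.248).

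Among the matrix and alarmin ligands, 6 of 10 fitted genes passed, beside 19.3% of all genes: 4 fell and 2 rose. The list was chosen with earlier results of these data known, so nothing is read from this count. Tnc (tenascin-C), Bgn (biglycan), Vcan and Lum, matrix components described as toll-like receptor ligands, fell by 1.37, 0.93, 0.84 and 0.75 on the log2 scale, with adjusted p-values of 0.00105, 0.00233, 0.0353 and 0.0361. Hspa1a and Hspd1, heat shock proteins, rose by 0.87 (0.0048) and 0.51 (0.0495). Lum and Hspd1 lie outside the naming rule and were added after their values were seen. Lum is also 1 of the OAF markers, whose sum in disc cells of CON was 8681 to 15017 CPM at 2 weeks and 2388 to 4268 CPM at 8 weeks. The part of this difference in the values of the matrix genes was not tested. The list median was 0.10, and that of all genes was -0.02.

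**Figure D3:**
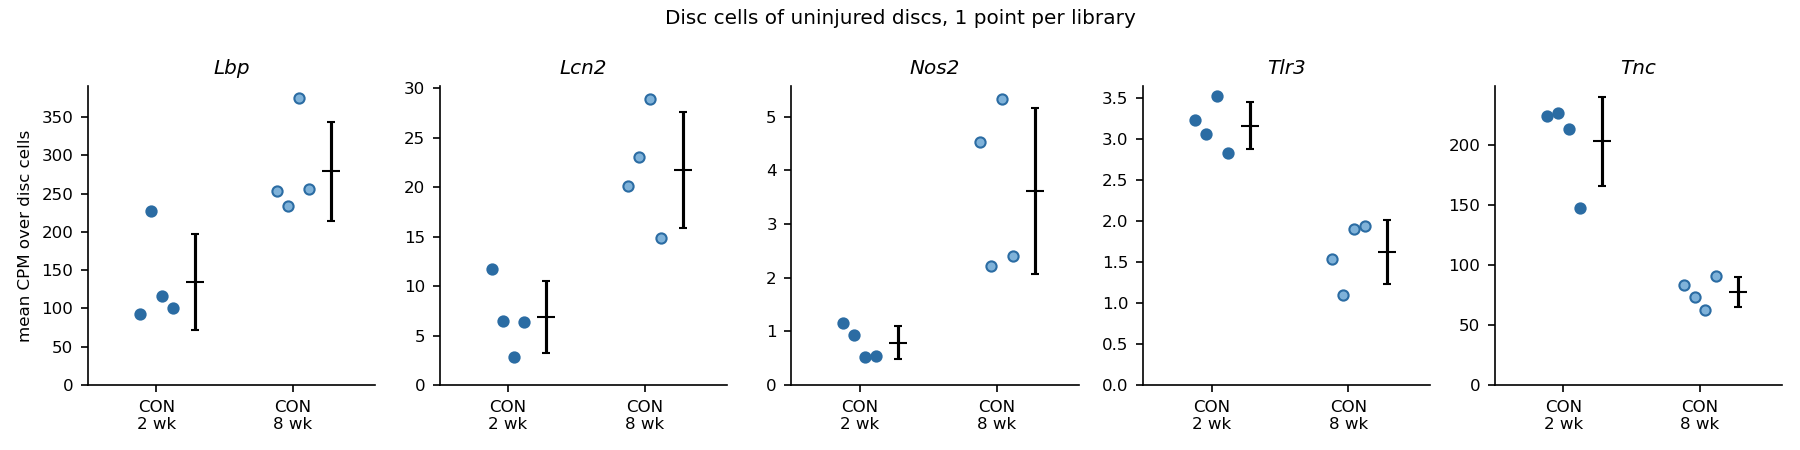
Mean CPM over disc cells of Lbp, Lcn2, Nos2, Tlr3 and Tnc in the control discs, each axis from 0; points are libraries (dark blue 2 weeks, light blue 8 weeks) and black bars give the mean and SD (n = 4). The groups do not overlap in any of the 5 panels: Lbp, Lcn2 and Nos2 are higher and Tlr3 and Tnc lower at 8 weeks. Nos2 met the limit on low values only through the 8-week libraries.

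In myeloid cells, where Cd14 and Tlr2 were highest, punctured discs were compared with control discs over 7 rats with at least 20 such cells in both libraries. The members' levels in this class were known when the genes were chosen, so nothing is read from their p-values. Cd14 was at 294, 382, 301 and 196 CPM in CON and 376, 500.04, 281 and 680.2 CPM in LDP of rats 1 to 4, and at 133, 277 and 435 CPM in CON and 1509, 773 and 1374 CPM in LDP of rats 5 to 7. LDP was higher in 6 of 7 rats, rat 3 being the exception. The mean log2 ratio was 1.29 ± 0.32 (SE), beside -0.22 for the median of all genes. It did not pass with limma (adjusted p of 0.233, unadjusted p of 0.000794) or edgeR (0.158) and passed with DESeq2 (0.0365). The adjusted p of limma was between 0.0761 and 0.535 when 1 rat was left out, and 0.898 without rats 5 and 6.

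At 1000 UMIs, 18.3 ± 6.07% of myeloid cells had a Cd14 UMI in CON and 40.1 ± 17.9% in LDP (n = 7), a difference of 21.8 ± 22.1 percentage points. In a two-sided exact sign-flip permutation test over rats the unadjusted p was 0.0469, with 0.0156 the smallest possible, and it was 1 of 5 such tests, 1 per listed gene. Because the levels in myeloid cells were known at the choice of the genes, this p gives no support. The p was 0.0938 without any 1 of rats 1, 4, 5, 6 and 7, 0.0625 without rat 2 and 0.0312 without rat 3, and without rats 5 and 6 the difference was 13.9 points (p of 0.1875). In those rats the myeloid cells of CON had the lowest Lyz2 levels (1397 and 1957 CPM, against 2828 to 9455 CPM in the other myeloid libraries). Whether these cells are macrophages of the same kind in CON and LDP was not tested.

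Tlr2 in myeloid cells was at 29.7, 87.5, 49.9 and 6.42 CPM in CON and 56.3, 78.3, 55.1 and 36.7 CPM in LDP of rats 1 to 4. In rats 5 to 7 it was at 26.0, 29.2 and 129 CPM in CON and 307, 109 and 167 CPM in LDP. LDP was higher in 6 of 7 rats, rat 2 being the exception, with a log2 ratio of 1.28 ± 0.39 (SE) that did not pass (adjusted p of 0.294, DESeq2 0.198, edgeR 0.324). The log2 ratio was -0.22 ± 0.24 for Myd88, -0.69 ± 0.56 for Tlr4 and 0.18 ± 0.78 for Lbp, none of which passed (adjusted p of 0.788, 0.693 and 0.961). In all, 0 of 5 members passed with limma, and Cd14 and Tlr2 had an unadjusted p under 0.05, as had 247 genes higher and 896 genes lower in LDP of the 11147 tested. Limma called 0.00897% of all genes, a single gene (Cd28, lower in LDP and named after its value was seen), and DESeq2 called 3.18% of the 1854 genes for which it gave an adjusted p, with Cd14 called and Tlr2 not; the other 3 members had no adjusted p from it.

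None of the 81 pathway genes fitted in myeloid cells passed, beside 0.00897% of all genes, and nothing is read from this count. The 16 induced targets had a median log2 ratio of 0.45 and the 7 acute-phase genes 0.96, beside -0.22 for all genes. Ccl2, the monocyte chemokine, had 1.41 ± 0.28 (SE; adjusted p of 0.149), Il1rn, the interleukin-1 receptor antagonist, 1.02 ± 0.31 (0.294) and Hp, haptoglobin, 3.63 ± 1.15 (0.309). Fgl2, a secreted fibrinogen-like protein, had -1.14 ± 0.23 (0.15). The other named genes (C3, Nos2, Tlr3, Tlr13, Traf6, Tab1, Nfkbib, Hspa1a, Msr1 and Casp4) had adjusted p-values from 0.309 to 0.777.

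**Figure D4:**
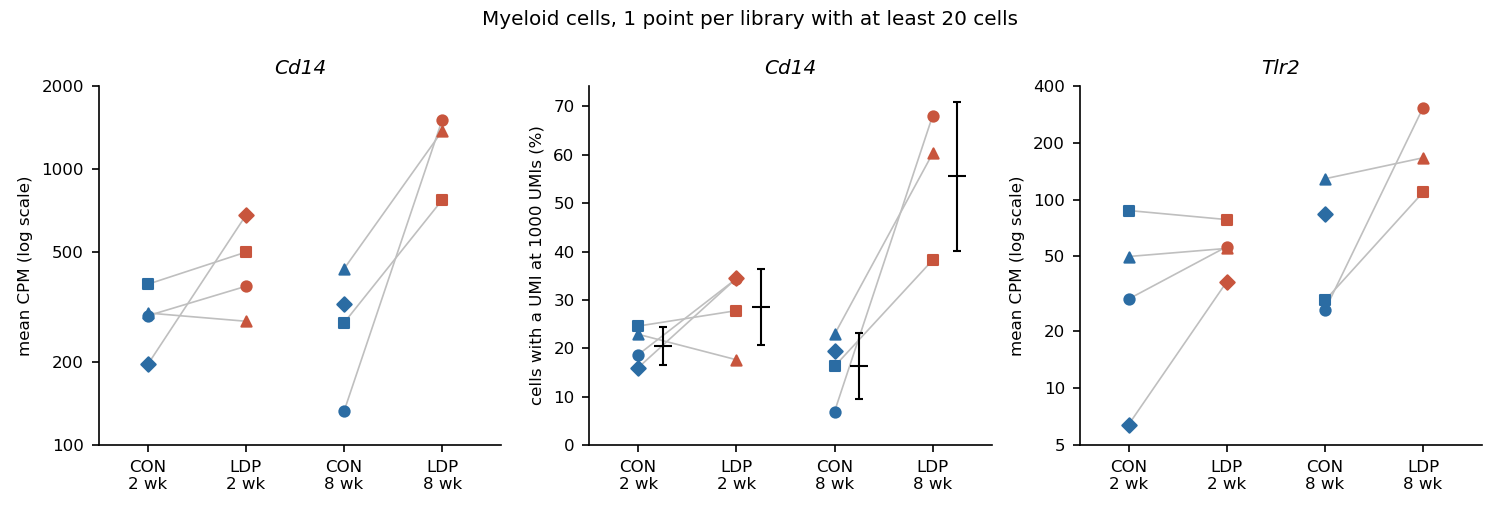
Cd14 and Tlr2 in myeloid cells, 1 point per library with at least 20 such cells (blue CON, red LDP) and lines joining the libraries of a rat; the outer panels give mean CPM on a log axis and the middle panel the percentage of cells with a Cd14 UMI at 1000 UMIs, with the mean and SD of each group. The line rises in 6 of 7 rats for Cd14 and in 6 of 7 for Tlr2, and CON rat 8 has no partner.

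Cd14 and Tlr2 were the members with the highest myeloid-to-disc ratios (medians of 9.22 and 25.3), and both were higher in LDP in 6 of 7 rats there, so the 250 bases before their start sites are shown. Cd14 is also among the genes that the authors used to name the myeloid class. The sequences are those of RefSeq for the GRCr8 build, not the rn6 build named in the submitters' processing notes, and run 5′ to 3′ in the direction of the gene. Of the 5 listed genes, 4 had a sequence, and Lbp and Ly96 had no entry. Capitals mark the PU.1 core word GAGGAA in Cd14 (chr18:28611159-28611408, minus strand) and words of the kappa-B consensus in Tlr2 (chr2:171504558-171504807, minus strand).

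Cd14: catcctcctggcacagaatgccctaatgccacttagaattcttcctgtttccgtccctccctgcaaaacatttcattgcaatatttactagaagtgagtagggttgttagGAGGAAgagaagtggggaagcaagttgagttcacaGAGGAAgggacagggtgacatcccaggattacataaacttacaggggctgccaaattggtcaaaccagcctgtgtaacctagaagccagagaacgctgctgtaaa
Tlr2: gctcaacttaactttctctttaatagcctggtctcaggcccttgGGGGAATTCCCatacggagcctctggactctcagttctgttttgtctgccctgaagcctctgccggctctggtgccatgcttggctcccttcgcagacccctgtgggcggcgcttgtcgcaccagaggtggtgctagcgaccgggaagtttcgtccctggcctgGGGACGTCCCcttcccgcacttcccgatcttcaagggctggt

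The Cd14 window holds GAGGAA 2 times on its own strand, beginning 140 and 105 bases before the start, and the Tlr2 window holds an overlapping pair of kappa-B words beginning 206 and 205 bases before the start and another beginning 42 bases before it. On either strand, GAGGAA occurs in 23.3% of the 33469 rat promoter windows of this length and the kappa-B consensus in 6.33%. The Tlr4 window holds GAGGAA 2 times on the opposite strand and that of Myd88 holds 1 AP-1 word (TGANTCA, in 6.34% of windows). A match is a run of letters, and binding was not measured here.

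In endothelial cells at 2 weeks none of the 5 genes passed the test between LDP and CON. Their levels in this class were known when they were chosen, so nothing is read from that. The log2 ratios were 0.00 ± 0.24 for Cd14, -0.29 ± 0.26 for Lbp, -0.38 ± 0.47 for Tlr2, -0.44 ± 0.39 for Tlr4 and -0.12 ± 0.16 for Myd88 (SE, n = 4 rats), beside -0.11 for the median of all genes. Limma called 0% of 11224 genes, with 506 at an unadjusted p under 0.05 and no member among them; edgeR called 46 and DESeq2 48 genes, again no member. None of 70 pathway genes passed with limma. Il6 had 1.32 ± 0.42 and Tnfaip3 -0.65 ± 0.20 (SE; adjusted p of 0.941 and 0.875), and Dcn, a matrix proteoglycan, -0.74 ± 0.21 (0.875). The others named by the rule (Tlr3, Tlr13, Tab1, Ikbkb, Socs3, Ptgs2, Cp, Steap4, Bgn, Pglyrp1 and Nod1) were at an adjusted p of 0.978. Endothelial cells of CON were not named at 8 weeks, and that contrast was not analysed here.

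Lbp was also read in a small set of cells rich in S100a8 and S100a9, the calprotectin genes of neutrophils and monocytes, which were singled out after their values were seen. These are cells of the myeloid and unnamed classes in which S100a8 and S100a9 made up at least 1% of the UMIs. Of the 6945 myeloid and unnamed cells with at least 1000 UMIs, 638 had 20 or more S100a8 and S100a9 UMIs per 1000, 37 had 5 to 19 and 6270 had under 5, so few lie near the limit. In 6 libraries with at least 20 of them, an Lbp UMI was found in 18.0 to 36.4% of the cells. The counts were 18 of 100 cells in CON rat 1 and 37 of 141 cells in CON rat 5, and for LDP they were 26 of 84 cells (rat 3), 12 of 45 cells (rat 4), 8 of 22 cells (rat 5) and 59 of 252 cells (rat 7). The exact 95% binomial interval was 11.0 to 26.9% in CON rat 1, the lowest share, and 17.2 to 59.3% in LDP rat 5, the highest. In the other myeloid cells the share was 0 to 4.00% over 15 libraries, with a median of 0.813%.

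The same cells were low in Cd14. It had a UMI in 0 to 4.44% of the rich cells, against 6.94 to 68.1% of the other myeloid cells. Csf1r, the macrophage growth factor receptor, was found in 0 to 0.709% against 7.64 to 41.2%, and Camp, a neutrophil granule peptide, in 75.9 to 100% against 0 to 1.43%. Ltf, another of the granulocyte markers, was found in 0% of the rich cells in the 3 libraries that list it. In the other myeloid cells it was also at 0%, over 8 libraries. Comp, a gene of disc cells that should be absent from both, was found in 23.0 to 48.8% of the rich cells in 5 libraries and in 0 of 22 in LDP rat 5 (exact 95% interval up to 15.4%), the library with the highest Lbp share, against 8.82 to 54.2% of the other myeloid cells. The part of free RNA of disc cells in the Lbp UMIs was not tested. Tlr2 was at 0 to 23.0% and highest in LDP rat 7 (58 of 252 cells). Bpi, a neutrophil gene of the same family as Lbp, is listed in none of the libraries, and reads of the pair could not be compared, so whether these UMIs are Lbp transcripts was not tested. With the rich cells left out of the myeloid class, the log2 ratio of Lbp between LDP and CON was -0.0044 in place of 0.18, and that of Cd14 was 1.32 in place of 1.29.

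**Figure D5:**
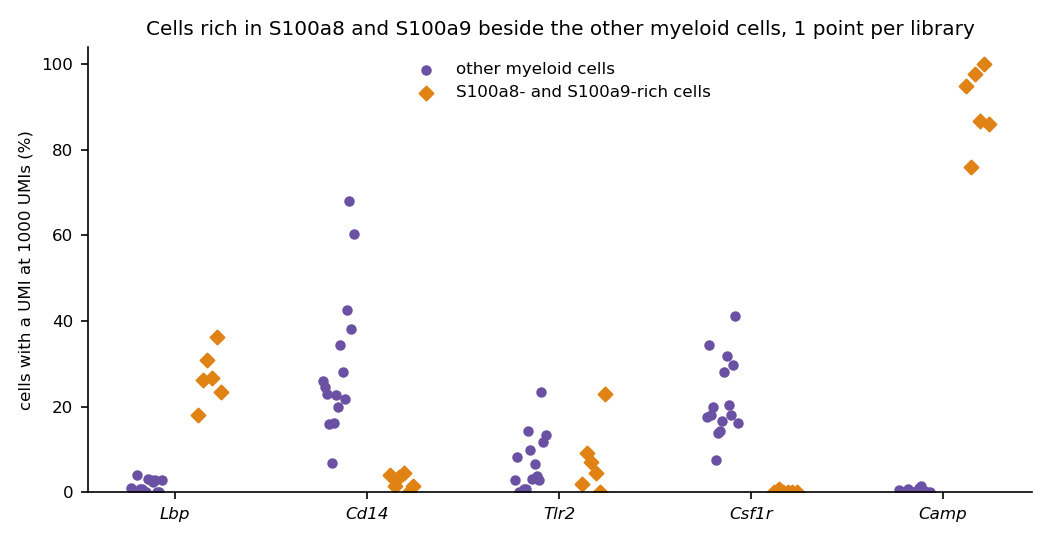
Percentage of cells with a UMI of Lbp, Cd14, Tlr2, Csf1r and Camp at 1000 UMIs per cell, 1 point per library with at least 20 cells; purple circles are myeloid cells outside the set and orange diamonds the S100a8- and S100a9-rich cells of the myeloid and unnamed classes. The rich cells sit at 18.0 to 36.4% for Lbp and at most 4.44% for Cd14, the other myeloid cells at most 4.00% for Lbp and at least 6.94% for Cd14.

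The genes whose level in disc cells followed each member most closely over the 16 libraries are given as a description, since the libraries share their rats, depth and time points. For Lbp these were Nampt (Pearson r of 0.94 for log2 mean CPM), AC119007.5, Asl, Chtf8 and Bloc1s4 (0.91 for the last). With the time points centred, r with Nampt was 0.84. For Cd14 they were Aldh1a3 (0.87), ST7, Got1, B3gnt2 and Bfsp1 (0.80). For Tlr4 they were Mrrf (0.95), Pdcd7, Rnmt, Tbccd1 and Exoc1 (0.88), and LDP rat 4 lies far below the other libraries in Tlr4. For Myd88 they were Zmym5 (0.92), Pbx3, Tle4, Peli1 and Cmtm6 (0.90), and for Tlr2 Zc3h7b (0.85), Atp6v1b2, Hyls1, Ddb1 and Ccng1 (0.79).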

How the data were processed

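Cells were taken from 16 libraries of 8 rats, 4 in each of CON and LDP at 2 and at 8 weeks. The authors processed reads in Partek Flow (rn6 per GEO's processing notes; aligner and doublet handling not given in the sources used here), named the classes (their macrophages are called myeloid here and their immune cells lymphoid), kept cells by mitochondrial content, gene and UMI number, and clustered each group apart. As deposited, gene values are log2(CPM + 1) per cell. The deposited total of a cell is an estimated count that need not be whole. The percent of mitochondrial reads was computed by the authors, with library medians of 2.93 to 4.52% in disc cells. Dividing out the totals gave whole UMIs, within 0.02, for 99.4% of values above 0.

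Here mean CPM per class and library was fitted by limma 3.58.1 (R 4.3.3) as log2(mean CPM + 1), so that changes of low genes are understated, with a block for the rat (none between the control discs of the times), trended variance and Benjamini-Hochberg adjustment, for genes of at least 1 CPM in 4 libraries. All 5 listed members passed that limit in every fit. edgeR 4.0.16 and DESeq2 1.42.0 on summed recovered UMIs were alternatives, since the files hold log2 values and not counts. Cells under 1000 UMIs (882 of 127077 disc cells, 15 of 1731 myeloid cells) were left out of shares at 1000 UMIs. Classes need 20 cells per library. Intervals cover counting error only, free RNA was not removed and no doublet caller was run. Libraries of a group come from separate rats, whose spread the p-values measure. The limma steps were tested on simulated data. CON and LDP libraries of a number are the same animal; correlations of their deviations were -0.15, 0.20, 0.14 and -0.18 at 2 weeks and 0.14, 0.45, 0.03 and 0.38 at 8 weeks.

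The members, lists and markers were chosen with earlier results of these data known. Named genes are the members, up to 4 genes per list past an adjusted p of 0.05 or else the 2 of smallest p, and the 5 genes most correlated with each member.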

Additional observations from a re-analysis of the deposited data

Results flagged for a closer look

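Over 80 groups of 4 libraries (5 genes by class and group), 7 held 1 library far from the other 3, where chance gives about 1 in 20. In CON at 2 weeks these were Lbp in OAF cells of rat 2 (193 CPM, others 23.6 to 46.9), Tlr4 in IAF cells of rat 2 (21.6 CPM, others 13.5 to 14.7) and Lbp in endothelial cells of rat 4 (59.5 CPM, others 28.6 to 32.3). In LDP at 2 weeks rat 4 was low for Tlr4 in all disc cells (5.77 CPM, others 15.2 to 16.7) and in NP cells (7.52 CPM, others 18.1 to 19.4). In CON at 8 weeks rat 7 was high for Lbp in disc cells (375 CPM, others 234 to 256), and rat 5 was high for Lbp in myeloid cells (23.3 CPM, others 2.20 to 5.68). What sets these libraries apart was not tested.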

How the results depend on the processing

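At 2 weeks 21 genes passed between LDP and CON in disc cells (16 higher), 285 with DESeq2 (181 higher), 0 with cells thinned to 1000 UMIs, 10 without the replicate block and 0 to 7 when 1 rat was left out. At 8 weeks 30 passed (13 higher), 29 with edgeR (19 higher), 565 with DESeq2 (287 higher) and 1 to 8 with 1 rat left out. Without the replicate block 35 passed at 8 weeks (8 higher), and the calls of the members and the counts in myeloid (1) and endothelial cells (0) stood as they were. Between control discs 2161 passed, and 1102 (without rat 3) to 2455 (without rat 2) with 1 rat left out. In myeloid cells 1 passed, 0 with no limit on low values, without rats 5 and 6 or with rat 8, 14 with edgeR, 59 with DESeq2 and 0 to 22 with 1 rat left out. In endothelial cells 0 passed, 34 with pooled CPM, 46 with edgeR, 48 with DESeq2 and 1 to 16 with 1 rat left out. Of the members' shares in myeloid cells, 1 of 5 had an unadjusted p under 0.05 in the sign-flip test (0 without rats 5 and 6, 0 to 1 with 1 rat left out). No adjustment over the 5 tests was made, and nothing is read from this count. The shares in control discs are a description with no test, because they rest on levels known when the genes were chosen. The Cd14 call in myeloid cells was gained with DESeq2 (1.26, adjusted p of 0.0365, range over all alternatives 0.0365 to 0.898). The sign turned for Lbp in myeloid cells without the S100a8- and S100a9-rich cells (-0.0044), for Cd14 in endothelial cells with edgeR (0.16) and DESeq2 (0.14) and for the Myd88 share in myeloid cells at 500 UMIs (-0.362 points) and 2000 UMIs (-1.56 points). With 1 rat left out the log2 values ran from -0.057 to 0.12 for Myd88 and -0.11 to 0.13 for Tlr4 in control discs, -0.41 to 0.81 for Lbp in myeloid cells, and -0.14 to 0.13 for Cd14 and -0.49 to 0.028 for Lbp in endothelial cells. The Tlr4 share in control discs ran from -0.0599 to 0.261 points and the Myd88 share in myeloid cells from -0.445 to 1.49 points. In disc cells, where the difference of the members between LDP and CON is a description, the sign also turned with 1 rat left out: at 2 weeks the values ran from -0.17 to 0.30 for Cd14, -0.23 to 0.14 for Lbp, -0.13 to 0.08 for Tlr2 and -0.41 to 0.01 for Tlr4, and at 8 weeks from -0.13 to 0.16 for Cd14, -0.098 to 0.069 for Lbp and -0.16 to 0.12 for Tlr4. It turned for Tlr2 at 2 weeks (0.015 and 0.028), and for Lbp (0.12 and 0.14) and Tlr4 (0.155 and 0.17) at 8 weeks, with edgeR and DESeq2, and at 8 weeks for Lbp with cells thinned to 1000 UMIs (0.0072) and Tlr4 with pooled CPM (0.012). Myd88 stayed below 0 at both times in each of these. The cause was not tested. Alternatives without the rich cells, without rats 5 and 6 and with rat 8 were chosen after seeing the data. Tlr2 in disc cells was not detectable above lymphoid cells, and the part of depth in this was not tested.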
